A study of Mus musculus with 24 samples.

Results

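Acetyl-CoA is the acetyl donor of histone acetylation, and the 10 genes described here encode enzymes and carriers that make it or bring it to the nucleus and cytosol. They were taken as a fixed list of gene names, out of 21755 protein-coding genes of the annotation, in 4 sets. The acetate users Acss1, Acss2 and Acss3 are acyl-CoA synthetases, of which Acss2 is the cytosolic and nuclear enzyme that joins acetate to CoA. The citrate route consists of Cs, which makes citrate in mitochondria, Slc25a1, which exports it, and Acly, which cleaves it to acetyl-CoA outside mitochondria. Pdha1, Pdhb and Dlat are subunits of the pyruvate dehydrogenase complex, which turns pyruvate into mitochondrial acetyl-CoA, and Acat1 is the mitochondrial thiolase of ketone body and isoleucine breakdown. The question put to the data was how much H3K9ac the promoters of these genes carried, and whether acetate users and the citrate route differed in it.

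H3K9ac, acetylation of lysine 9 of histone H3, lies on the nucleosomes that flank the start sites of active genes. KAT2a is an acetyltransferase of this residue. CPT1a brings long-chain fatty acids such as palmitate into mitochondria, where their oxidation gives acetyl-CoA that can leave as citrate, while acetate becomes acetyl-CoA without mitochondria.

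The mark was profiled by ChIPmentation, in which bead-bound chromatin is tagged by a transposase, in spheroids grown from 4T1, a line of mouse mammary carcinoma cells. There were 4 groups of 3 libraries: scramble, CPT1a knockout, CPT1a knockout with acetate (called the acetate group here) and KAT2a knockout. All spheroids were collected at day 5, and the medium was labelled as holding 75 µM palmitate in the scramble, CPT1a knockout and KAT2a knockout groups and 5 mM acetate in the acetate group, for which the labels do not name palmitate, although a figure legend of the study describes palmitate with and without acetate. Per the study's methods, all lines carried doxycycline-inducible Cas9 and a stably selected guide, which was a non-targeting guide against EGFP in the controls, and which of the guides to Cpt1a or Kat2a these libraries carried was not given in the sources used here. The study's methods speak of biological replicates in general, but neither they nor the labels say how the libraries of a group were cultured, so p-values measure the spread between these libraries, which may be technical. The 12 input libraries were not analysed here.

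A promoter peak was a deposited peak that overlapped, by at least 1 bp, the 1 kb on either side of any annotated start of the gene (GENCODE vM21, genome build mm10). Of the 21755 genes, 10777 (49.5%) had one in all 12 lists, 9811 (45.1%) in none and 1167 (5.36%) in some. Fold enrichment over the local background of a library was not scaled between libraries, so the strongest promoter peak of each of the 10777 genes was given a rank percentile within its library, from 0 at the weakest to 100 at the strongest. Of the 10 members, 8 were ranked.

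The scramble libraries stood apart from the other 9 across the genome. They held 29176 to 34370 peaks, against 16212 to 24639, with a median width of 585 to 686 bp against 816 to 1147 bp. The summit of the strongest promoter peak lay at a median of 588 to 637 bp downstream of the first coding start, against 334 to 410 bp, and that start lay inside a peak for 54.4% to 72.5% of ranked genes, against 73.3% to 90.9%. Genotype and any difference in how the scramble chromatin was prepared cannot be told apart, and every comparison with scramble below uses the same 3 libraries. All 6 epithelial markers searched (Epcam, Cdh1, Krt8, Krt18, Krt7 and Cldn4) had promoter peaks in 12 lists, while of 9 leukocyte, endothelial, hepatocyte and alveolar markers only the alveolar Sftpc had any, in 4 lists. Cpt1a ranked at 13.7, 40.1 and 27.4 in scramble and 29.3, 47.6 and 59.0 in CPT1a knockout, and Kat2a at 6.04, 8.06 and 6.45 in scramble and 42.3, 13.1 and 30.3 in KAT2a knockout; a promoter mark does not show whether an edited gene still makes protein.

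Promoter sequences upstream of the coding starts are shown for Acss2, whose rank moved most, for Slc25a1 and Acly, the members of the citrate route that carry acetyl units out of mitochondria, and for Acss1, which had no peak. They come from RefSeq (GRCm38.p6, the same build as mm10), where 8 of the 10 members were found, all but Acss3 and Acat1. Capitals mark the GC box GGGCGG, the CCAAT box CCAAT and the E-box CACGTG on either strand.
Acss2 (chr2:155517793-155517947, plus strand): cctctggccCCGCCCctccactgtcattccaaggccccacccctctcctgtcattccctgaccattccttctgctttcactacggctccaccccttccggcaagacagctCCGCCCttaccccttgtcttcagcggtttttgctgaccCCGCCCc
Slc25a1 (chr16:17928220-17928469, minus strand): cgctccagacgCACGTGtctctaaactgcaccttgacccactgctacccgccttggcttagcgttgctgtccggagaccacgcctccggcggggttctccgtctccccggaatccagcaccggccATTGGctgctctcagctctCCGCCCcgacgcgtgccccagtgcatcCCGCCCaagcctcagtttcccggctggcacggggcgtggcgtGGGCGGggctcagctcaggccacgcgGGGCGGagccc
Acly (chr11:100528001-100528250, minus strand): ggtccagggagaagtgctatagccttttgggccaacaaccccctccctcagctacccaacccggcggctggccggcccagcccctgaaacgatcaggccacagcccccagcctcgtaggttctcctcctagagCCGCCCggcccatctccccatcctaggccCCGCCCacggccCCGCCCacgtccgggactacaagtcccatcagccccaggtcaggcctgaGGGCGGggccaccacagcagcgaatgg
Acss1 (chr2:150668259-150668490, minus strand): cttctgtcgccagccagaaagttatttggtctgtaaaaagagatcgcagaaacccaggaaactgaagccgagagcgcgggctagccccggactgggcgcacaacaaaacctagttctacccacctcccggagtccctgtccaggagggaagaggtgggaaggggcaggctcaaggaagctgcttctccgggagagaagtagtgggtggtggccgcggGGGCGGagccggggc
In the 300 bases from 250 before to 50 after the RefSeq start, a GC box was found in 7 of the 8 members and in 48.0% of 20061 protein-coding promoters. Slc25a1 was the member with an E-box, a sequence held by 8.06% of all promoters, and 5 of the 8 had a CCAAT box, held by 37.9%. None held the cyclic AMP response element TGACGTCA (2.32% of all), the sterol response element TCACCCCAC (0.563%) or the NRF1 motif TGCGCATGC (2.04%). These matches describe letters in a window and are not binding sites.

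Of the 3 acetate users, only Acss2 carried promoter H3K9ac. Acss1 (ENSMUSG00000027452, chr2:150618105-150668500) and Acss3 (ENSMUSG00000035948, chr10:106933517-107123668) had a promoter peak in 0 of 12 lists, under every alternative window and threshold. Neither had a peak anywhere in its gene body. The nearest peak to the first coding start of Acss1 lay 58864 to 59127 bp away, and that to Acss3 at least 190238 bp away. E130215H24Rik, a noncoding gene on the plus strand, starts 720 bp from a start of Acss1. A list holds peaks past the caller's threshold only, so H3K9ac below that threshold was not detectable. The promoter of Acss1 is not poor in CpG, with 78 in the 2001 bp around its start against a median of 90 over ranked genes, whereas Acss3 has 31.

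The other 7 members, with Acss2, had a promoter peak in 12 of 12 lists. Over the 12 libraries, the rank of H3K9ac was 66.8 ± 15.8 (SD, n = 12) at Cs, 64.6 ± 18.2 at Dlat, 61.7 ± 18.5 at Acly, 58.8 ± 22.9 at Pdhb, 51.2 ± 15.6 at Acat1, 36.6 ± 21.4 at Acss2, 27.4 ± 11.3 at Pdha1 and 16.9 ± 8.56 at Slc25a1. Neighbours in this order differed by less than the larger of their SDs. The citrate route thus held members near the top and near the bottom of the order, as did the pyruvate dehydrogenase subunits.

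Acss2 (ENSMUSG00000027605, chr2:155517948-155585724, plus strand) was the member whose rank differed most from scramble. It stood at 77.5, 61.8 and 67.7 in scramble, at 48.2, 23.8 and 26.9 in CPT1a knockout, at 22.6, 24.5 and 27.6 in the acetate group and at 20.9, 23.3 and 14.1 in KAT2a knockout. All 9 other libraries lay below all 3 scramble libraries, and 12.6% of ranked genes showed such a separation in either direction. A weaker mark in all cells cannot be told apart from a mark on fewer cells. Relative to scramble, the rank of Acss2 fell by 36.0 points in CPT1a knockout (SE 8.44, limma adjusted p = 0.0171), by 44.1 in the acetate group (SE 8.44, adjusted p = 0.00952) and by 49.6 in KAT2a knockout (SE 8.44, adjusted p = 0.00686). Against the 9 other libraries together the fall was 43.2 points (SE 6.89, limma adjusted p = 0.00164), and the exact permutation p, two-sided, was 0.00455, the smallest that 3 against 9 libraries can give. In CPT1a knockout the call was lost without scramble replicate 1 (limma adjusted p = 0.0535) and without CPT1a knockout replicate 2 (0.0560) or 3 (0.0578), within a range of 0.00989 to 0.0578 over the 12 libraries left out in turn.

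**Figure D1:**
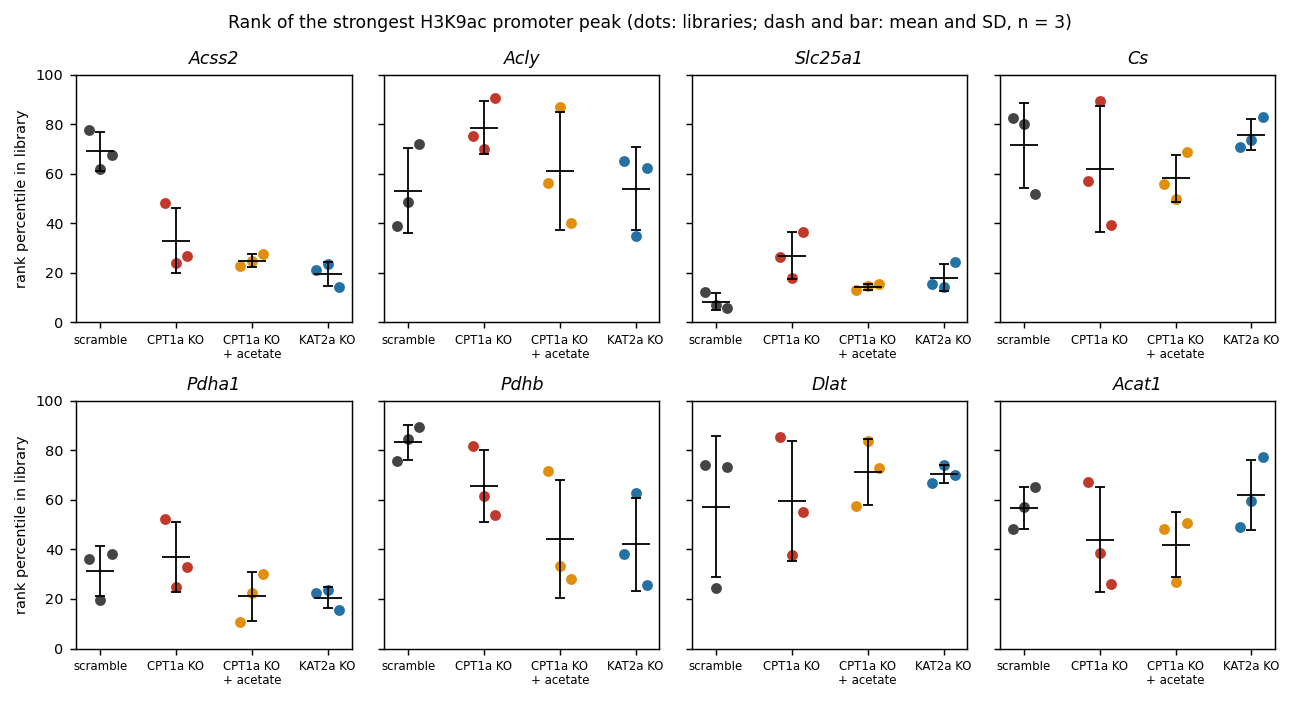
Rank percentile, within each library, of the strongest H3K9ac promoter peak of the 8 ranked members (vertical axis) in the 4 groups. Dots are single libraries, dashes and bars the mean and SD of 3. Acss2 is above 60 in the 3 scramble libraries and below 50 in the other 9, while Slc25a1 is lowest in scramble, at 12.03 or less.

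The fall concerned the upstream of 2 peaks that flank the start of Acss2. The first coding start lay between the peaks in 10 libraries and just inside the downstream peak in 2 of the acetate group. The upstream peak, with its summit at -1053 to -626 bp from the start, had a fold enrichment of 24.8, 21.9 and 23.1 in scramble, 26.7, 23.5 and 14.0 in CPT1a knockout, 18.7, 16.9 and 19.6 in the acetate group and 20.3, 22.4 and 9.61 in KAT2a knockout. The downstream peak had 9.59, 10.8 and 10.7 in scramble, 20.0, 16.7 and 9.90 in CPT1a knockout, 14.7, 12.05 and 16.2 in the acetate group and 14.2, 15.1 and 15.2 in KAT2a knockout. The upstream peak was the stronger in every library but KAT2a knockout replicate 3. Upstream, the enrichments of scramble lay within the range of the other libraries, and downstream they lay at its lower end, 1 of them below it. The median enrichment over all ranked promoters was 18.7 to 19.4 in scramble and 18.5 to 31.4 in the others, and in CPT1a knockout replicate 1 the rank was lower than in scramble although the enrichment was higher.

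When promoters were ranked only by peaks with the summit within 2000 bp downstream of the first start, an alternative chosen after seeing the data, Acss2 was at 14.4 ± 3.35 (SD, n = 3) in scramble and 12.8 ± 5.56 (n = 9) in the others, with a difference of -1.60 points (SE 3.50, limma adjusted p = 0.802). Ranked only by peaks within 2000 bp upstream, it was at 68.8 ± 8.14 and 29.8 ± 11.8, a difference of -39.0 points (SE 6.97, limma adjusted p = 0.00179) among 1046 genes with such a peak in every library. The upstream peak also lies in Ggt7, a gamma-glutamyltransferase family gene on the minus strand whose start is 130 bp from a start of Acss2. Ggt7 took its strongest promoter peak from the same peak as Acss2 and had the same rank in 12 of 12 libraries, so these data do not assign the peak to either gene. Gss, the glutathione synthetase gene, starts 142 bp from an internal start of Acss2, and its rank of 20.9 to 31.3 in scramble overlapped that of 12.8 to 34.3 in the others.

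**Figure D2:**
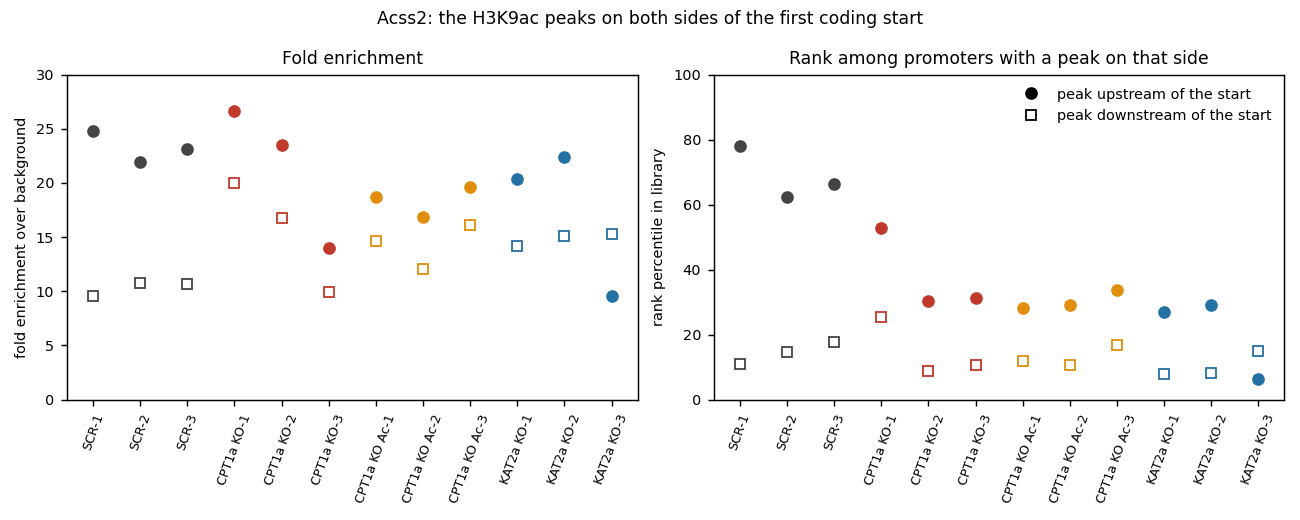
Fold enrichment over background (left) and rank percentile among promoters with a peak on the same side (right) of the H3K9ac peaks upstream (filled circles) and downstream (open squares) of the first coding start of Acss2, 1 point for each library. The rank of the upstream peak is 62.2 to 77.9 in scramble and 6.21 to 52.9 in the others, while that of the downstream peak overlaps between them.

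Slc25a1, the mitochondrial citrate carrier, moved the other way in CPT1a knockout. Its rank (ENSMUSG00000003528, chr16:17925223-17928219, minus strand) was 12.03, 7.12 and 5.72 in scramble and 26.5, 17.7 and 36.5 in CPT1a knockout. It was 13.0, 14.5 and 15.3 in the acetate group and 15.4, 14.3 and 24.3 in KAT2a knockout. All 9 stood above scramble, with the nearest at 13.0, and 12.6% of ranked genes showed such a separation in either direction. The rise in CPT1a knockout was 18.6 points (SE 4.69, limma adjusted p = 0.0233), and that over the 9 libraries together was 11.4 points (SE 3.83, limma adjusted p = 0.0643). The values in the acetate group lay below those of CPT1a knockout, a difference of -12.6 points (SE 4.69, limma adjusted p = 0.444). Slc25a1 had the highest GC content of the members around its start, 62.5% against a median of 53.9% over ranked genes, and with the GC trend of each library removed its change in CPT1a knockout was 4.09 points (limma adjusted p = 0.631) and that over the 9 libraries was -0.65. Ranked only by peaks with the summit downstream of the start, scramble stood at 1.29 ± 1.55 (SD, n = 3). By that ranking, Slc25a1 was higher by 26.6 points in CPT1a knockout (SE 4.63, limma adjusted p = 0.00405), by 17.6 in KAT2a knockout (SE 4.63, adjusted p = 0.0416) and by 19.2 over the 9 libraries (SE 3.78, adjusted p = 0.00526). That ranking leaves out the strongest scramble peaks of Slc25a1, whose summits lay upstream of the start, at -213 to -188 bp. Weaker scramble peaks, with enrichments of 4.44, 3.64 and 5.69, took their place. These values thus restate the position of the summit and are no further measure of a rise. By the strongest peak on either side, the call in CPT1a knockout was lost without scramble replicate 2 (0.0641) or 3 (0.0877) or CPT1a knockout replicate 3 (0.0671), as limma adjusted p.

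Acly and Cs, the other members of the citrate route, did not pass the test by rank. Acly (ENSMUSG00000020917, chr11:100476353-100528000, minus strand) was at 38.9, 48.4 and 72.1 in scramble, 75.2, 69.8 and 90.4 in CPT1a knockout, 56.4, 87.0 and 40.2 in the acetate group and 64.97, 34.7 and 62.3 in KAT2a knockout. Its difference in CPT1a knockout was 25.3 points (SE 13.6, limma adjusted p = 0.247), with 1 scramble library among the knockout values. Cs (ENSMUSG00000005683, chr10:128337734-128362479, plus strand) was at 82.4, 80.1 and 51.6 in scramble and 39.3 to 89.3 in the others, with overlap in every group.

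Among the pyruvate dehydrogenase subunits, Pdhb had the values furthest from scramble. Pdhb (ENSMUSG00000021748, chr14:8165996-8173025, minus strand) was at 75.5, 84.7 and 89.4 in scramble, 81.9, 61.4 and 53.9 in CPT1a knockout, 71.7, 33.2 and 27.9 in the acetate group and 38.0, 62.7 and 25.8 in KAT2a knockout. The 6 libraries of the last groups lay below scramble, but the difference over the 9 libraries, -32.5 points, did not pass (SE 10.98, limma adjusted p = 0.0661). Pdha1 (ENSMUSG00000031299, chrX:160122209-160138413, minus strand) was at 19.7 to 38.3 in scramble and 10.7 to 52.4 in the others. Dlat (ENSMUSG00000000168, chr9:50634633-50659780, minus strand) was at 74.1, 24.4 and 73.2 in scramble and 37.6 to 85.5 in the others, and Acat1 (ENSMUSG00000032047, chr9:53580522-53610382, minus strand) at 48.2, 57.3 and 65.2 and at 26.0 to 77.3. For these 3 genes scramble and the other libraries overlapped.

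Over the members, 2 of 8 passed by rank in CPT1a knockout against scramble (1 higher, 1 lower), where 10.0% of ranked genes did. In KAT2a knockout against scramble 1 of 8 passed, with 4.41% of ranked genes, and in the acetate group against scramble 1 of 8, with 5.56%. Over the 9 libraries 1 of 8 passed, with 11.6% of ranked genes. The median change of the 8 was -3.66, 2.62, -11.8 and -5.69 points in these comparisons, and that of all ranked genes lay between 0.04 and 0.22. For the acetate group against CPT1a knockout, which does not use the scramble libraries, 0 of 8 passed with limma, and 5 genes (0.0464%) did so over the genome. At an unadjusted p under 0.05 the counts there were 1 of 8 and 981 of 10777, and the change of Acss2 was -8.05 points (SE 8.44, limma adjusted p = 0.842).

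**Figure D3:**
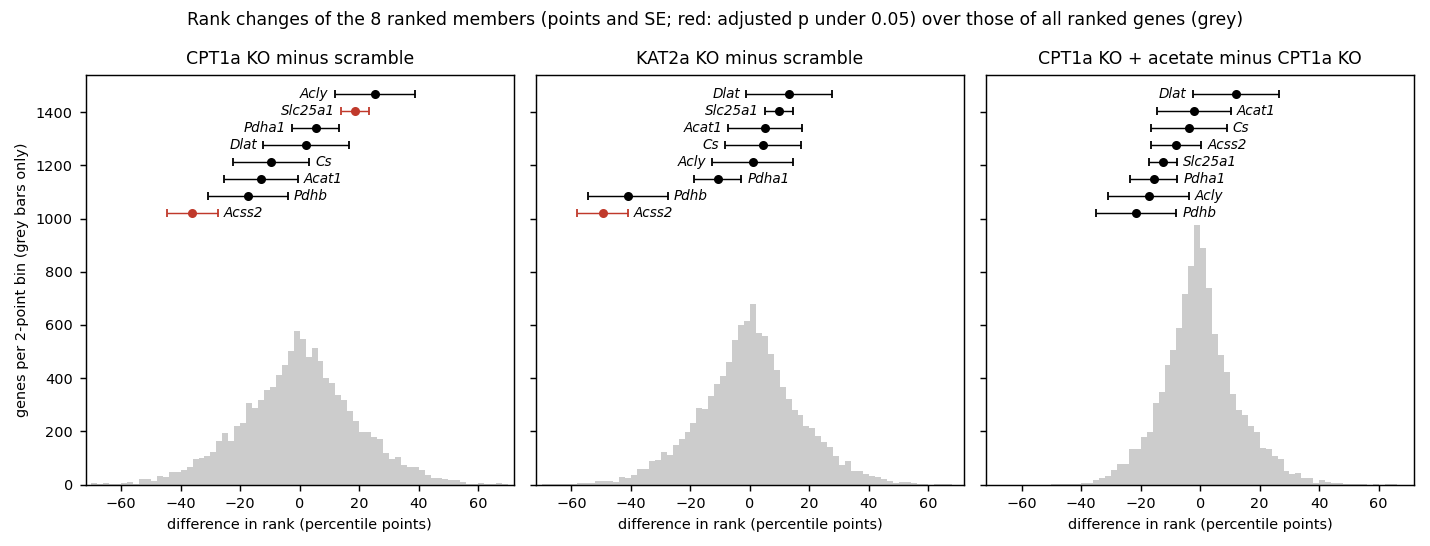
Difference in rank percentile between groups (horizontal axis, percentile points) of the 8 ranked members, with their SE, above the distribution of that difference over all ranked genes (grey bars, genes per bin). Members past an adjusted p of 0.05 are red: Acss2 and Slc25a1 in CPT1a knockout, Acss2 in KAT2a knockout and none in the acetate group against CPT1a knockout.

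With Acss1 and Acss3 lacking peaks, acetate users against the citrate route came down to Acss2 against the mean of Acly, Slc25a1 and Cs. That mean was 43.2 to 45.2 in scramble and 40.9 to 58.9 in the others. Subtracting the rank of Acss2 gave -33.0, -16.6 and -24.5 points in scramble, 4.66, 35.1 and 28.5 in CPT1a knockout, 19.2, 25.9 and 13.7 in the acetate group and 29.5, 17.5 and 42.3 in KAT2a knockout. The mean of the 3 citrate genes was below Acss2 in all 3 scramble libraries and above it in the other 9. Gene by gene, 1 of the 3 was above Acss2 in each scramble library and 2 or 3 were in each of the others. The group means were -24.7 ± 8.19, 22.8 ± 16.02, 19.6 ± 6.11 and 29.8 ± 12.4 (SD, n = 3). No test was made of this difference, and 1 gene supplies its acetate side. Ranked only by peaks downstream of the start, the scramble mean was 29.6, so the sign in scramble rests on the upstream peak that Acss2 shares with Ggt7.

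The shape of the promoter peaks differed more widely than their rank. At Pdha1 the summit of the strongest peak lay 1120, 1008 and 1107 bp downstream of the first coding start in scramble, and 160 to 374 bp downstream in the other 9. At Acly it lay at 1005, 990 and 1220 bp in scramble and at 328 to 894 bp in the others, and at Pdhb at 604 to 715 bp and 288 to 449 bp. In these genes, each scramble summit lay further into the gene than every other summit, and the same held for Dlat (772 to 813 bp against 465 to 714 bp) and Acat1 (528 to 811 bp against 248 to 376 bp). How many of all ranked genes separated in this way was not counted. By the test of summit position given below, 56.1% of them passed, so the separation cannot be read as a trait of these members.

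At Slc25a1 the order was the opposite. Its summit lay at -188, -213 and -208 bp from the start in scramble and at 206 to 383 bp in the other 9, on the other side of the start. For the 9 libraries against scramble, the summit moved by -817 bp at Pdha1 (SE 38.6, limma adjusted p = 2.6e-07), -492 bp at Acly (SE 94.0, adjusted p = 0.00227) and 475 bp at Slc25a1 (SE 31.7, adjusted p = 2.7e-06). It moved by -389 bp at Acat1, -283 bp at Pdhb, -231 bp at Cs and -216 bp at Dlat, with limma adjusted p of at most 0.00759. At Acss2 the difference was 76.8 bp (SE 275, limma adjusted p = 0.821), where KAT2a knockout replicate 3 took the downstream peak. Thus 7 of 8 members passed, but so did 56.1% of ranked genes, whose median shift was -171 bp, so a shift towards the start is not particular to these genes. In the acetate group against CPT1a knockout 0 of 8 members passed and 0.742% of ranked genes did.

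**Figure D4:**
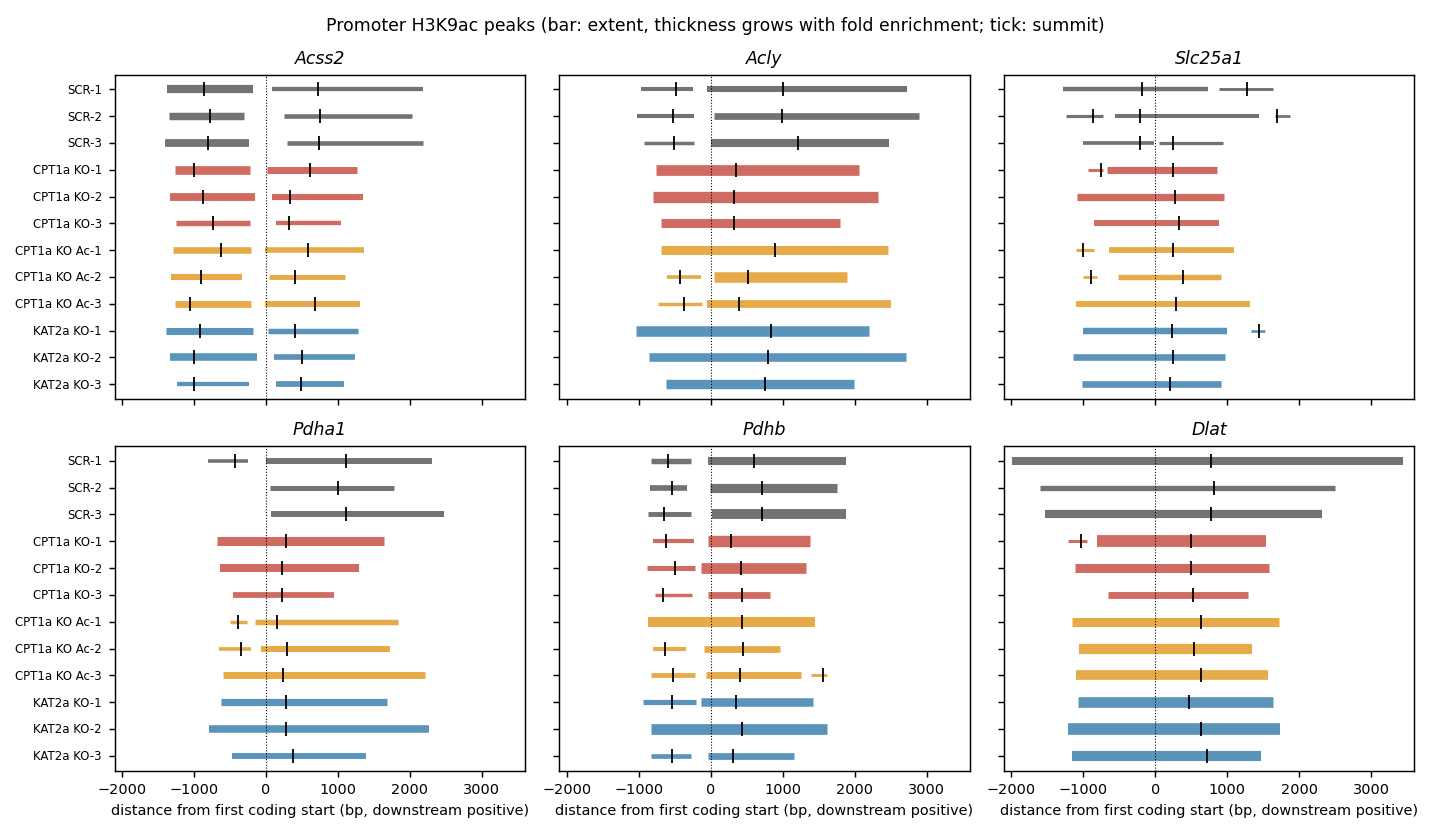
Extent of each promoter H3K9ac peak of 6 members in the 12 libraries, as distance from the first coding start (horizontal axis, bp, downstream positive). Bars are peaks, thicker with higher fold enrichment, and ticks are summits. In scramble the strongest peaks of Acly, Pdha1 and Pdhb begin near the start and lean downstream, those of Dlat are the widest, and the summit of Slc25a1 is upstream. A weaker, separate upstream peak is present in each scramble library at Acly and Pdhb and in 1 at Pdha1.

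The first coding start lay inside a promoter peak in 12 of 24 pairs of ranked member and library in scramble, 20 of 24 in CPT1a knockout, 22 of 24 in the acetate group and 21 of 24 in KAT2a knockout. Over all ranked genes the mean share in these groups was 61.2%, 84.6%, 81.1% and 86.6%, so lower coverage in scramble is not particular to the members. At Acat1 it was covered in 0 of 3 scramble libraries and 8 of 9 others, at Pdha1 in 1 of 3 and 9 of 9, and at Acly in 1 of 3 and 8 of 9. At Acly the 3 scramble libraries and 2 of the acetate group had a separate upstream peak, while the CPT1a and KAT2a knockout libraries had 1 peak across the start. Cs and Dlat were covered in all 12 libraries. These counts are a description, with no test, and pairs from 1 library are not independent.

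Width, the length of the strongest promoter peak, was larger in scramble at Dlat, Cs and Acat1. At Dlat it was 5426, 4100 and 3849 bp in scramble and 1949 to 2945 bp in the other 9. Cs had 4427, 3494 and 4165 bp against 1109 to 2889 bp, and Acat1 2210, 2004 and 2214 bp against 993 to 1878 bp. None of these ranges overlapped, a separation that 24.0% of ranked genes showed.

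In CPT1a knockout against scramble, the log2 width fell by 1.08 at Cs (SE 0.26, limma adjusted p = 0.0137), by 0.93 at Dlat (SE 0.17, adjusted p = 0.00682) and by 0.71 at Acat1 (SE 0.21, adjusted p = 0.0274), and the median over all ranked genes was -0.38. In this comparison 3 of 8 members passed, with 26.4% of ranked genes. The change at Cs ran from -1.29 to -0.70 over the 12 fits without 1 library, and all 12 passed. Over the 9 libraries the same 3 members passed, with 25.6%: Dlat by -0.78 (limma adjusted p = 0.00491), Cs by -0.74 (0.0267) and Acat1 by -0.54 (0.0352). The call of Acat1 over the 9 libraries was lost in 7 of the 12 fits without 1 library (limma adjusted p up to 0.111), and that of Cs without scramble replicate 1 (0.106) or 3 (0.0851). In CPT1a knockout, Acat1 lost its call without scramble replicate 1 (limma adjusted p = 0.0746) or 3 (0.0672) or CPT1a knockout replicate 3 (0.0861). In the acetate group against scramble 1 of 8 passed (Dlat, -0.74, limma adjusted p = 0.0347), with 7.03%, and the call was lost in 7 of the 12 fits without 1 library. In KAT2a knockout against scramble 0 of 8 passed with limma, with 3.89%, and 1 of 8 had an unadjusted p under 0.05. In the acetate group against CPT1a knockout 0 of 8 members and 0% of ranked genes passed with limma, and 0 of 8 and 244 genes had an unadjusted p under 0.05.

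The other 5 members did not pass by width in any comparison. Acss2 had peaks of 1046 to 1205 bp in scramble and 952 to 1203 bp in the others, and Acly 2479 to 2860 bp and 1851 to 3577 bp. Pdha1 had 1721 to 2410 bp and 1402 to 3056 bp, Pdhb 1762 to 1915 bp and 865 to 2448 bp, and Slc25a1 984 to 2006 bp and 1438 to 2416 bp, with overlap in each.

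**Figure D5:**
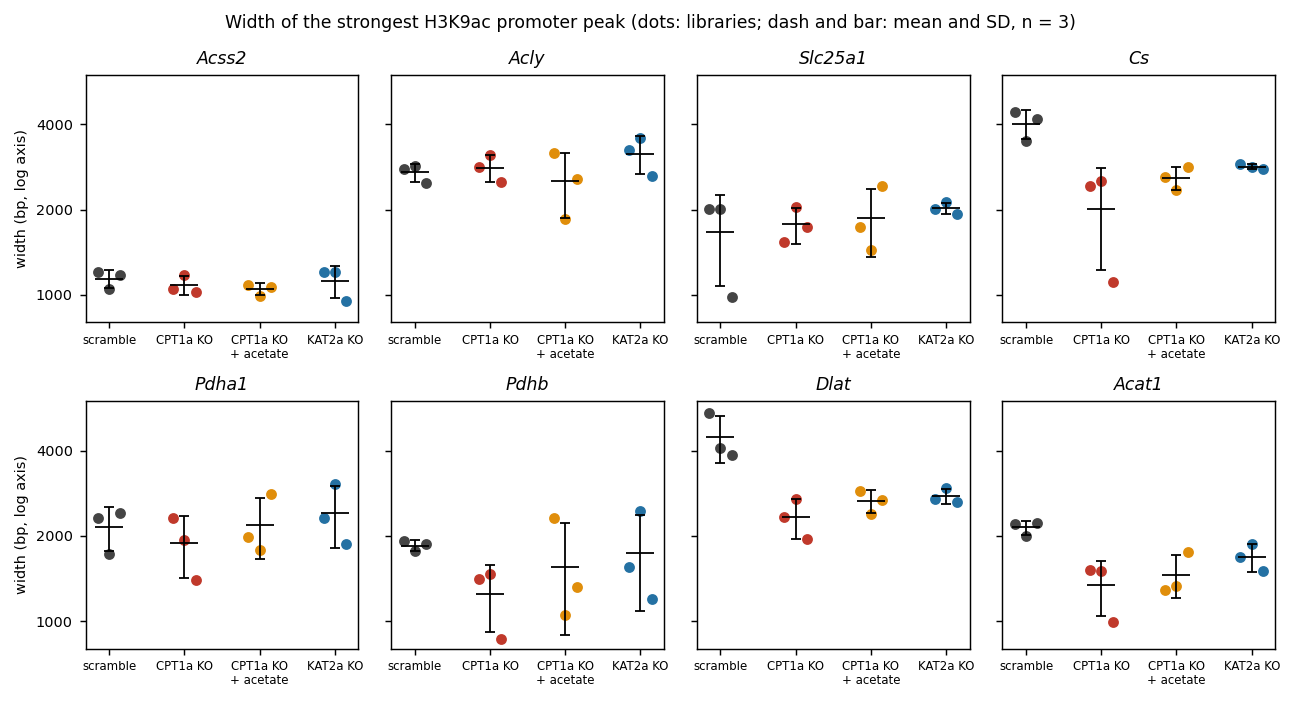
Width in bp (vertical axis, log scale) of the strongest H3K9ac promoter peak of the 8 ranked members in the 4 groups. Dots are single libraries, dashes and bars the mean and SD of 3. At Cs, Dlat and Acat1 each scramble library has a wider peak than any other library, while Acss2 shows no such order.

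A wider list of 40 acetyl-CoA genes was read beside the members, of which 36 were ranked. Pdk4, a kinase that turns off pyruvate dehydrogenase, Slc16a3, a lactate exporter, and Acot12, an acetyl-CoA hydrolase, had a peak in 0 lists, and the ketone enzyme gene Bdh1 in 1 of 3 scramble and 9 of 9 other lists. Over the 9 libraries against scramble 3 of 36 passed by rank, all higher, beside the 11.6% of all ranked genes, and the median change of the 36 was 1.79 points. Of the 3 that passed, 2 are described. Kat2a, at 6.04 to 8.06 in scramble and 13.1 to 60.9 in the others, was higher by 27.5 points (SE 6.36, limma adjusted p = 0.0129). In KAT2a knockout alone its difference from scramble was 21.7 points (SE 7.79, limma adjusted p = 0.127). Srebf2, which encodes the transcription factor of sterol synthesis genes, was at 54.8 to 64.1 and 74.6 to 90.6 (21.5 points, SE 5.92, limma adjusted p = 0.0293).

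Of the pyruvate entry and dehydrogenase control genes, 0 of 9 ranked passed in any of the 5 comparisons with limma, and of the fatty acid and ketone oxidation genes likewise 0 of 9. Over all ranked genes 0.0464% to 11.6% passed in these comparisons, so 0 of 9 does not set these genes apart. At an unadjusted p under 0.05 the counts were 0 to 2 and 1 to 3, beside 981 to 3075 of 10777 genes. Cpt1a, in the fatty acid and ketone set, stood at 27.1 ± 13.2 (SD, n = 3) in scramble and 52.5 ± 12.7 (n = 9) in the others, a difference of 25.4 points that did not pass (SE 9.30, limma adjusted p = 0.0871).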

How the data were processed

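H3K9ac ChIPmentation peak lists of 12 libraries in 4 groups were used, grouped by the labels. Per the study's methods, the authors trimmed reads with fastq-mcf, aligned them to mm10 with BWA and removed duplicates with Picard, whereas the submitters' processing notes name Bowtie2, SAMtools, deepTools and MACS2, with mm10 and dm6; the roles could not be settled. Labels and methods also give different catalogue numbers for the antibody. The authors' lists hold the peaks of single libraries, not of pooled ones, and no read depth is stated, so depth is unknown. Deposited values were the fold enrichment of a peak over its local background (a ratio), −log10 p and −log10 q, and positions. The smallest deposited −log10 q was 2.00, that is a q threshold of 0.01. The spiked-in fly chromatin was not used, so total H3K9ac was not measured.

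From these, peaks on the Y chromosome were set aside, and ranks, log2 widths and summit distances of the strongest promoter peak of 10777 genes were fitted with limma 3.58.1 (R 4.3.3, group means over all 12 libraries, trended variance), with Benjamini-Hochberg adjustment over all genes and a threshold of 0.05. Exact permutation tests of 3 against 3 libraries cannot go below 0.1, and of 3 against 9 below 0.00455. The fits were tested on simulated data. Summit distance was added after seeing the data. The text names all 10 members, genes starting within 1 kb of a member start, members of the wider list past the threshold over the 9 libraries, of which 1 is not reported here, and Cpt1a and Kat2a. The members and lists were chosen with earlier results of these data known.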

Additional observations from a re-analysis of the deposited data

How the results depend on the processing

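The counts of members past the threshold by rank against scramble were 2 (CPT1a knockout), 1 (KAT2a knockout), 1 (acetate group) and 1 (the 9 libraries). Ranked by −log10 p they were 2, 3, 2 and 3, with 2327 to 3825 genes called over the genome, and by log2 fold enrichment minus the library median the last was 3. In CPT1a knockout the count was 1 with the GC trend removed, and in the acetate group it was 0 with downstream peaks alone. With downstream peaks alone the count in CPT1a knockout was 1, Slc25a1, whose strongest scramble peaks that setting leaves out. With upstream peaks alone it was also 1, but Acss2 was then the only member ranked. These counts by side are therefore not comparable with the count over 8 members. For Acss2 in CPT1a knockout, downstream peaks alone turned the change to 0.57 points (adjusted p = 0.948, range over all but the leave-one-out settings 0.000304 to 0.948). Leaving out 1 library gave 0 to 2 in CPT1a knockout, 0 without CPT1a knockout replicate 3, 1 to 2 over the 9 libraries (2 without CPT1a knockout replicate 1 or 2, acetate replicate 1 or KAT2a knockout replicate 2) and the same counts elsewhere. Windows of 500 or 2000 bp, a −log10 q of at least 5, summits in the window, lists of equal length, coding starts alone, and genes with a peak in at least 1 library left all 5 counts by rank as they were. The count for the acetate group against CPT1a knockout was 0 by rank and by width under every setting run.

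By width the counts were 3, 0, 1 and 3 in the same order. They were 0, 0, 0 and 0 for bases covered within the windows, which the window caps (Cs at 2077 bp and Dlat at 2001 bp in every scramble library), so that this alternative does not bear on their width, and 6, 3, 3 and 4 with peaks within 500 bp merged, where Acly (-0.44) and Slc25a1 (-0.49) turned narrower in CPT1a knockout and 4808 to 7858 genes were called. In KAT2a knockout the count was 1 with the library median subtracted and 1 with summits in the window. Leaving out 1 library gave 2 to 3, 0 to 2, 0 to 3 and 1 to 3, the lowest of the last without scramble replicate 1 or 3, and the highest in KAT2a knockout and the acetate group without CPT1a knockout replicate 3. The 7 members past the threshold by summit position stayed at 7 in all 14 alternatives.

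The citrate route minus Acss2 in scramble was -11.3 points ranked by −log10 p, and 29.6 with downstream peaks alone. In CPT1a knockout it was 11.98 with the GC trend removed and 41.5 with downstream peaks alone. With downstream peaks alone it was 32.3 in the acetate group, where it was 9.52 with the GC trend removed and 28.4 ranked by −log10 p. Libraries of the same number did not deviate together by rank (0 of 18 pairs over 0.1), which does not show whether they were cultured or prepared together. With the replicate block the count by width in the acetate group against scramble was 0, and that over the 9 libraries 2. Every other count of members was as without the block. The cause of these differences was not tested.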
